A study of Homo sapiens with 4 samples.

Results

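The S100 calcium-binding proteins of HuCCT1 cells were followed through 10 genes, S100A2, S100A4, S100A6, S100A8, S100A9, S100A10, S100A11, S100A14, S100A16 and S100P. They are a selection of the family, and every probe whose accession belongs to one of them was taken. This gave 11 of the 34127 probes on the array, for 10 of the 19482 genes that could be named. S100A11 was covered by 2 probes (A_23_P126593 and A_23_P145863) and each other gene by 1, and each probe was printed as 1 spot. The signal of 10 probes was well above background on all 4 arrays, and the probe for S100A8 was well above background on 0 of the 4.

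S100 proteins are small EF-hand proteins that mostly work as dimers. When calcium binds, they open a surface that docks partner proteins such as annexins, and several members are also released from cells and act on receptors such as RAGE (the product of AGER) and TLR4. Most S100 genes sit in a cluster on chromosome 1 beside genes of the cornified envelope, the outer protein shell of stratified epithelium, and many are abundant in simple epithelia and carcinomas, where they have been linked to motility and inflammation.

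HuCCT1 is a cell line from a human intrahepatic cholangiocarcinoma, a cancer of the bile ducts. Cultures were transfected (30 nM, Lipofectamine 2000) with Pre-miR-376c, a mimic of mature miR-376c-3p, with Pre-miR negative control, with siGRB2, an siRNA against GRB2, or with a non-silencing siRNA (siRNA negative control), and each group was 1 culture on 1 array. After 24 h all 4 cultures, controls included, received 5 ng/ml EGF in medium with 0.1% serum for a further 24 h, and 200 ng of total RNA was labelled with Cy3 and hybridized to a human 44 K Agilent design. The design asks which transcripts differ when miR-376c is supplied or when GRB2, the adaptor that couples the EGF receptor to Ras, is lowered.

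Values are log2 levels, that is, log2 of the background-corrected intensity minus the array's 75th percentile, so that a level of 0 is that percentile. Levels of one probe were compared between arrays, and levels of different probes were not compared with each other, save in a summed intensity of cell markers. Each condition had a single array, so there is no replicate, no p-value and no SD between cultures, and the small number of arrays sets how precise any difference can be. The scanner software's own error of a spot, carried to a difference between arrays, was 0.20 to 0.25 on the log2 scale for the 10 detected probes, and it covers noise within the array only. A difference of 1 on the log2 scale is 2-fold.

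The arrays shared 1 slide and 1 scan, and 21811 to 24119 probes per array were detected. The siRNA negative control array stood apart. Over the 21239 probes detected on all 4 arrays, the SD of the log2 differences was 0.54 to 0.58 in the 3 pairs of arrays that held it and 0.31 to 0.36 in the 3 pairs that did not. For each detected probe of these S100 genes, the siGRB2 difference is therefore given against both negative controls. GRB2 itself (A_24_P407717) had log2 levels of 0.62 with Pre-miR negative control, 0.07 with Pre-miR-376c, -0.10 with siRNA negative control and -0.65 with siGRB2, lowest on the array labelled siGRB2. In this gene siGRB2 was under 2-fold from its own control, and the negative controls lay further apart than that. The biliary epithelial markers KRT7, KRT19, KRT8, KRT18, EPCAM and SOX9 were detected on all 4 arrays by all 8 of their probes. Of the hepatocyte markers ALB and TTR were detected on no array and APOA1 on all 4 by 1 of its 2 probes, and of the fibroblast markers COL1A2 and DCN were detected on none and COL1A1 on all 4.

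The miRNA is shown here with the start regions of 3 S100 genes. S100A9 and S100A11 were 2-fold apart with siGRB2 against its own control, and S100P was lower by like amounts with both treatments against Pre-miR negative control. The mature miRNA (RefSeq, GRCh38.p14, chr14:101039732-101039752, plus strand) is printed 5′ to 3′ with its seed, bases 2 to 8, in capitals.
hsa-miR-376c-3p: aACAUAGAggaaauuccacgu

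The 100 bases before the RefSeq start site (GRCh38.p14) are printed below for S100A9, S100A11 and S100P, each on the strand of its gene. S100A9 lies at chr1:153357754-153357853 on the plus strand, S100A11 at chr1:152037005-152037104 on the minus strand and S100P at chr4:6693778-6693877 on the plus strand. Capitals mark matches on either strand to TATAAA (the letters of a TATA box), TGANTCA (letters bound by AP-1) and TTNNGNAA (letters bound by C/EBP factors).
S100A9: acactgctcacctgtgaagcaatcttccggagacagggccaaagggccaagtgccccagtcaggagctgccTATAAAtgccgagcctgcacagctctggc
S100A11: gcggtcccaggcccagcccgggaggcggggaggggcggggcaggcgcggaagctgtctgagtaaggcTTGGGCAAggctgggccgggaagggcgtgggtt
S100P: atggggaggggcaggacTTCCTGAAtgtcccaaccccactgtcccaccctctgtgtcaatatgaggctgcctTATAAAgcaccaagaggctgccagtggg

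In these windows TATAAA began 29 bases before the start site of S100A9 and 28 bases before that of S100P, and no capital stretch overlapped another. Over the full 250 bases before the start, TATAAA was in 5 of the 14 windows of the 10 genes (S100A4, S100A8, S100A9 and S100P), beside 10.7% of all 35116 RefSeq windows. TTNNGNAA was in 7 of the 14 (S100A6, S100A8, S100A9, S100A11, S100A16 and S100P), beside 33.2%, and TGANTCA in 1 of the 14 (S100A2), beside 6.57%. A match is only a run of letters, and genes with several start sites had several windows, so that these windows can overlap.

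S100A9 and S100A8 are calgranulins that pair with each other as calprotectin, an alarmin best known from neutrophils and monocytes and also made by inflamed or transformed epithelium. S100A9 had the widest range of the 10 detected probes, 1.47 on the log2 scale. Its intensity was 215 with Pre-miR negative control, 142 with Pre-miR-376c, 99.9 with siRNA negative control and 57.7 with siGRB2. The log2 levels were -3.64, -3.86, -4.11 and -5.11 in the same order. The siGRB2 array was the lowest of the 4, and the other 3 arrays lay within 0.46 of one another.

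S100A9 on the siGRB2 array was 36.2% of its level with Pre-miR negative control, a log2 difference of -1.47 with a scanner error of 0.24. Of the 22614 probes detected on both of these arrays, 29 had a difference as low as this one or lower. Against Pre-miR-376c the log2 difference was -1.25 (42.0%), reached or passed by 61 of 22078 probes. Against siRNA negative control it was -1.01 (49.8%), just past the 2-fold limit and reached or passed by 565 of 21440 probes. S100A9 was thus lower with siGRB2 than on each of the other 3 arrays, although against siRNA negative control the distance to the 2-fold limit was far smaller than the scanner error of 0.25. With Pre-miR-376c, S100A9 was -0.21 from Pre-miR negative control, the size of its scanner error of 0.21. In RNA from a whole culture, fewer cells that carry a transcript and less of the transcript per cell cannot be told apart.

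S100A8 gave intensities of 6.91, 7.71, 6.98 and 7.61 with Pre-miR negative control, Pre-miR-376c, siRNA negative control and siGRB2, while the lowest intensity of any detected probe was 21.2 to 24.4 per array. No difference is given for S100A8, since it was not well above background on any array. Whether S100A8 was also lower with siGRB2 could not be seen, since it lay under that floor on the control arrays as well. Among markers of the myeloid cells in which calgranulins are best known, 6 of the 8 probes were detected on all 4 arrays (CD68, CSF3R, ITGAM, SPI1 and 2 of the 4 for PTPRC). The detected probes of PTPRC, SPI1 and ITGAM were dim, with intensities of 31.9 to 81.6, while CSF3R had 128 to 234 and CD68 1058 to 1742. The summed intensity over the array's 75th percentile was 755 to 964 for the biliary markers and 0.74 to 0.94 for the myeloid markers across the 4 arrays. The myeloid sum was highest, 0.94, with siGRB2. It adds unlike probes, and its largest term, CD68, was highest with siRNA negative control (-0.46, beside -0.53 with siGRB2). LYZ had no probe, and the part of such markers in the S100A9 values was not tested.

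**Figure D1:**
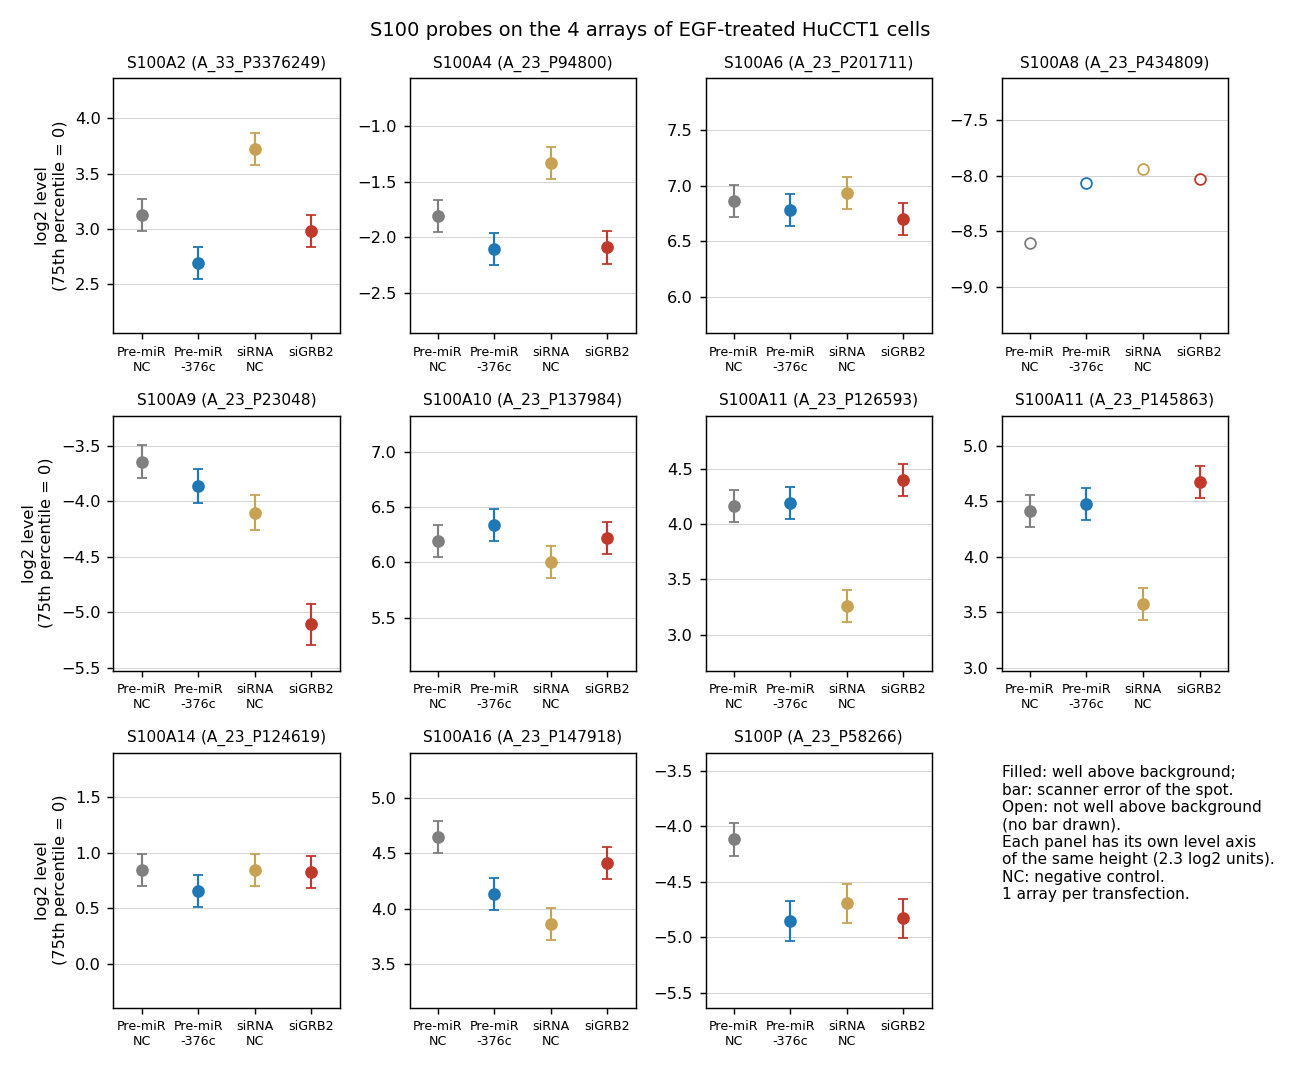
Log2 level (75th percentile of the array = 0) of each of the 11 S100 probes on the 4 arrays. Each panel is 1 probe with its own level axis of the same height, filled points are well above background with the scanner error as a bar, and open points (S100A8) are not. S100A9 is lowest with siGRB2 (-5.11), and both S100A11 probes are lowest with siRNA negative control (3.26 and 3.57).

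S100A11, S100A10 and S100A6 are annexin partners. S100A11 binds annexin A1 and takes part in membrane repair and growth control, S100A10 forms a stable complex with annexin A2 at the plasma membrane, and S100A6 (calcyclin) is a marker of proliferating cells that binds CACYBP. S100A11 differed between arrays by both of its probes. The first probe (A_23_P126593) had log2 levels of 4.16 with Pre-miR negative control, 4.19 with Pre-miR-376c, 3.26 with siRNA negative control and 4.39 with siGRB2. The second (A_23_P145863) had 4.41, 4.48, 3.57 and 4.68. One array, siRNA negative control, was low on both probes and the other 3 lay close together.

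With siGRB2, S100A11 was 2.19-fold and 2.15-fold its level with siRNA negative control by the 2 probes, log2 differences of 1.13 and 1.10 with a scanner error of 0.20 each. Against Pre-miR negative control the differences were 0.23 and 0.26, under 2-fold. The 2 negative control arrays differed by -0.90 and -0.84 in S100A11, siRNA negative control being the lower, 53.6% and 55.9% of Pre-miR negative control. The 2-fold call for S100A11 with siGRB2 thus rested on the siRNA negative control array. With Pre-miR-376c, S100A11 was 0.03 and 0.06 from Pre-miR negative control. Across the 6 pairs of arrays the probes differed from each other by at most 0.06.

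S100A10 and S100A6 gave bright spots and differed little. S100A10 had intensities of 196500, 167458, 110567 and 149142 with Pre-miR negative control, Pre-miR-376c, siRNA negative control and siGRB2, which scaled to log2 levels of 6.19, 6.34, 6.01 and 6.22. S100A6 had intensities of 313374, 227323, 210481 and 207127, which scaled to 6.86, 6.78, 6.94 and 6.70. No spot on the arrays was saturated. The whole range over the 4 arrays was 0.33 for S100A10 and 0.24 for S100A6, and neither reached 1.5-fold in any pair. For siGRB2 against siRNA and Pre-miR negative control, S100A10 gave 0.22 and 0.03, and S100A6 gave -0.24 and -0.17.

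S100A2 and S100A4 are often described with opposite roles in tumours: S100A2 is a mostly nuclear protein of epithelial cells that binds p53, and S100A4 (metastasin) binds the heavy chain of non-muscle myosin (MYH9) and is tied to motility. S100A2 had log2 levels of 3.13 with Pre-miR negative control, 2.69 with Pre-miR-376c, 3.73 with siRNA negative control and 2.99 with siGRB2. S100A4 had -1.81, -2.11, -1.33 and -2.09. Both genes were highest with siRNA negative control and lowest with Pre-miR-376c. They were ordered alike over the 4 arrays, although S100A4 with Pre-miR-376c and with siGRB2 differed by 0.02, less than the scanner error.

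Against its own control, siGRB2 gave log2 differences of -0.74 in S100A2 and -0.76 in S100A4, 59.9% and 58.9% of siRNA negative control. Against Pre-miR negative control the differences were -0.14 and -0.28. Under 2-fold in both cases, the values were larger beside the control array that stood apart. Pre-miR-376c gave -0.44 in S100A2, about 2 times the scanner error of 0.20, and -0.30 in S100A4. Set against siRNA negative control instead, S100A2 with Pre-miR-376c was -1.04, 48.8%, the only member past 2-fold in that pair.

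S100A14, S100A16 and S100P are the remaining members. S100A14 is a membrane-associated protein of epithelia, S100A16 is broadly expressed, and S100P, which binds ezrin and RAGE, is a known marker of pancreatic and biliary tumours. S100P was dim, with intensities of 155, 71.4, 66.3 and 70.2 with Pre-miR negative control, Pre-miR-376c, siRNA negative control and siGRB2. Its log2 levels were -4.12, -4.85, -4.70 and -4.83. Pre-miR negative control was the high array, and the other 3 lay within 0.16 of each other.

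S100P was therefore lower with both treatments when each was set against Pre-miR negative control, where its log2 difference for Pre-miR-376c was -0.74 (60.1%) and for siGRB2 was -0.71 (61.1%), each with a scanner error of 0.23. With normexp background correction, which draws dim probes together, the values were -0.30 and -0.24. With siGRB2 against siRNA negative control it was -0.13. The siRNA negative control array was itself -0.58 from Pre-miR negative control, so that S100P did not separate treatments from controls.

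S100A16 had log2 levels of 4.65, 4.14, 3.87 and 4.41 with Pre-miR negative control, Pre-miR-376c, siRNA negative control and siGRB2. Pre-miR-376c was -0.52 from Pre-miR negative control (69.9%), over 2 times the scanner error of 0.20. Against siRNA negative control, however, Pre-miR-376c gave 0.27, and against the mean of both controls -0.12. For siGRB2 the direction depended on the control as well, 0.55 against siRNA negative control and -0.24 against Pre-miR negative control. S100A14 was the steadiest member, at 0.85, 0.66, 0.85 and 0.83, a range of 0.19 that is below the scanner error of a difference. With siGRB2 it was -0.02 from each negative control.

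**Figure D2:**
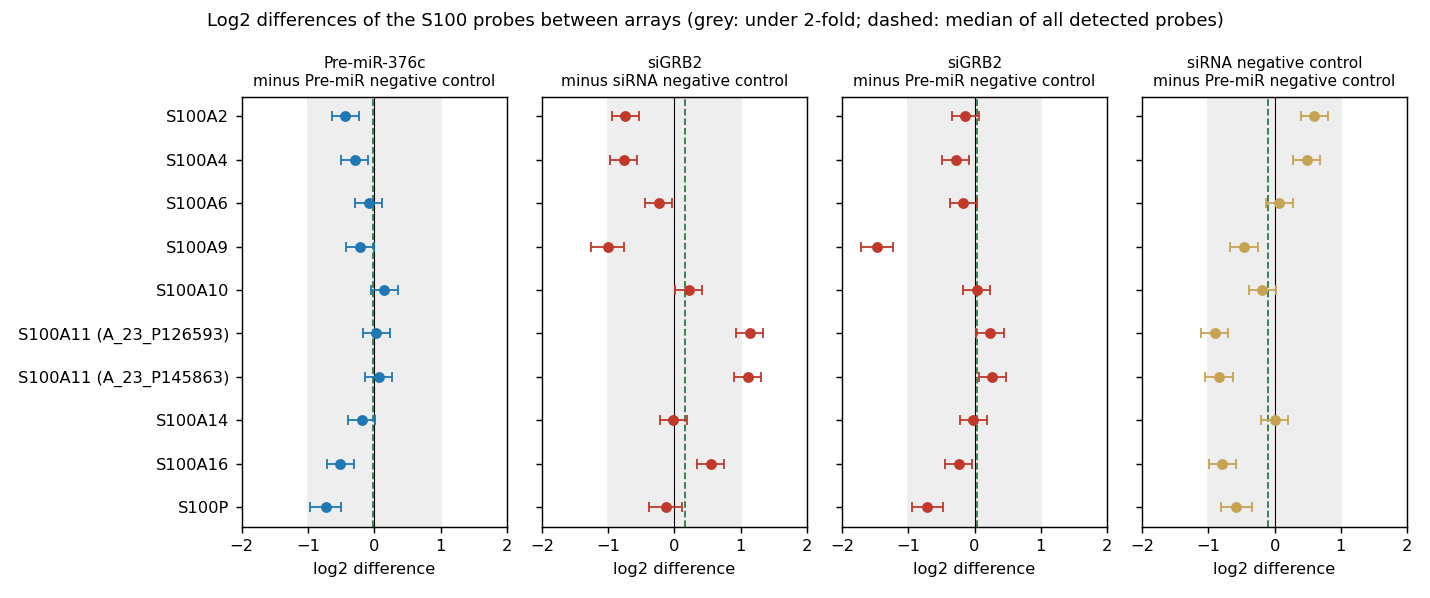
Log2 differences (x axis) of the 10 detected S100 probes in 4 pairs of arrays, with the scanner error as a bar. The grey band is under 2-fold and the dashed line is the median of all probes detected on all 4 arrays. S100A9 lies left of the band with siGRB2 against Pre-miR negative control (-1.47) and on its edge against siRNA negative control (-1.01), and both S100A11 probes lie right of it only against siRNA negative control.

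Counted together, 0 of the 10 detected member probes were 2-fold apart when Pre-miR-376c was set against Pre-miR negative control, where 3.04% of all 24384 probes compared were. The members' median log2 difference was -0.20, beside -0.03 for all probes detected on all 4 arrays, and 7 of the 10 were lower. Between siGRB2 and siRNA negative control 3 of the 10 were 2-fold apart, S100A9 lower and both S100A11 probes higher, where 9.82% of 23368 probes were. The members' median was -0.08, beside 0.15 for all probes.

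Between siGRB2 and Pre-miR negative control 1 of the 10 was 2-fold apart, S100A9, where 2.94% of 24495 probes were. The median was -0.15, beside 0.04 for all probes. The siGRB2 comparisons share the siGRB2 array, and the comparisons of Pre-miR-376c and of siGRB2 with Pre-miR negative control share that control array. The 2 negative controls were 2-fold apart in 0 of the 10 members, where 9.17% of 24340 probes were, with a median of -0.32 beside -0.11. In the remaining pairs, Pre-miR-376c against siRNA negative control had 1 of 10 (S100A2, lower) where 7.26% of 22974 probes were 2-fold apart, and siGRB2 against Pre-miR-376c had 1 of 10 (S100A9, lower) where 2.9% of 23434 were. With 10 probes, a count of 0 or 1 is near the share of all probes in each of these pairs, and the count of 3 for siGRB2 against siRNA negative control came from 2 genes.

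The order of the arrays was not shared across the family. Pre-miR negative control was highest for 4 of the 10 detected probes (S100A9, S100A14, S100A16 and S100P) and lowest for 0, although S100A14 differed between the negative controls by far less than the scanner error. siRNA negative control was highest for 3 (S100A2, S100A4 and S100A6) and lowest for 4 (S100A10, S100A16 and both S100A11 probes). Pre-miR-376c was lowest for 4 (S100A2, S100A4, S100A14 and S100P), and siGRB2 was lowest for 2 (S100A6 and S100A9) and highest for both S100A11 probes.

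In the RefSeq annotation (GRCh38.p14, used here for gene order) 16 S100 genes were placed on chromosome 1, while S100P is on chromosome 4. The order counts S100 genes only, so that other genes may lie between them, and it leaves out S100A7L2. It begins with S100A10, S100A11, S100A9, S100A12, S100A8, S100A7A, S100A7 and S100A6. Then come S100A5, S100A4, S100A3, S100A2, S100A16, S100A14, S100A13 and S100A1. S100A10 and S100A11, adjacent in this order, were both lowest with siRNA negative control but ranged over 0.33 and 1.13 or 1.10. S100A4 and S100A2, with S100A3 between them, were both highest with siRNA negative control, where S100A3 was not (-1.81, -2.36, -2.24 and -1.85 in the array order used above). S100A9 and S100A8 could not be compared, since S100A8 was not detected.

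Of the other 11 S100 genes of the genome list, 10 had a probe and 6 were detected on at least 1 array. Among the 3 detected on all 4 arrays, S100A5, which lies between S100A6 and S100A4, had the largest range. Its log2 levels were -1.41 with Pre-miR negative control, -2.37 with Pre-miR-376c, -3.61 with siRNA negative control and -1.53 with siGRB2. S100A5 lay lowest with siRNA negative control, 1.24 under the next array, and gave 2.08 for siGRB2 against siRNA negative control but -0.12 against Pre-miR negative control. S100A13, a copper-binding member linked to the release of FGF1, was steady at 5.20, 5.00, 5.33 and 5.17.

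**Figure D3:**
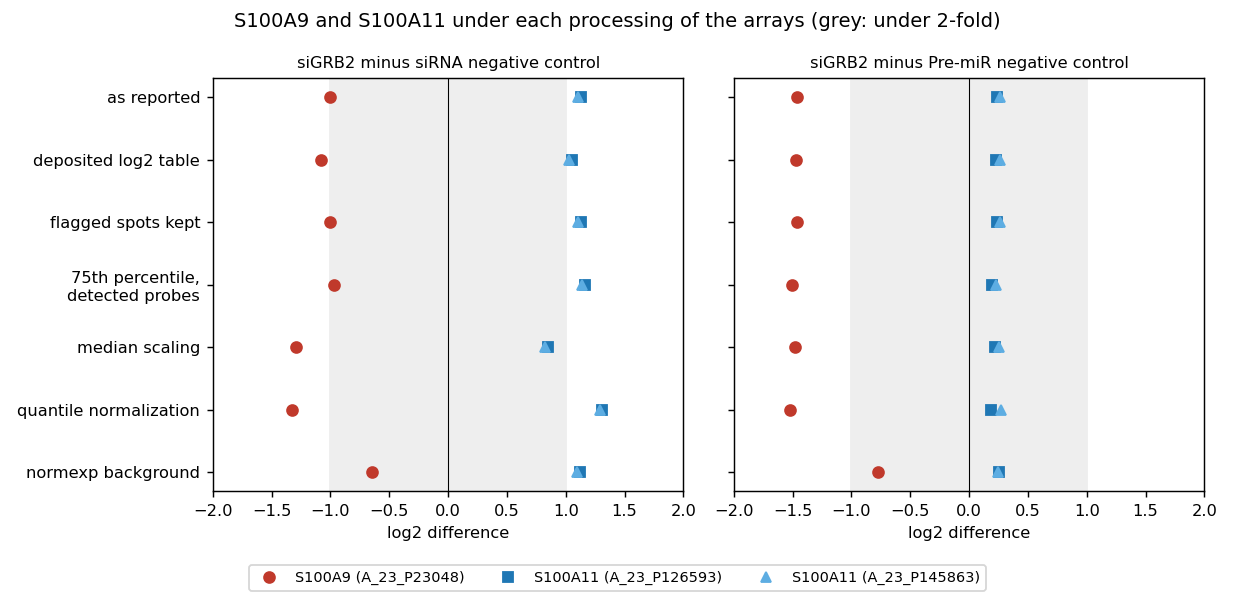
Log2 differences of S100A9 (circles) and the 2 S100A11 probes (squares and triangles) for siGRB2 against each negative control under 7 ways of processing the arrays, with the band under 2-fold in grey. S100A9 keeps its direction throughout and is inside the band with normexp background correction (-0.65 and -0.77) and, against siRNA negative control, with the percentile over detected probes (-0.97), and S100A11 is outside it only against siRNA negative control.

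These calls depended on how the arrays were processed. S100A9 with siGRB2 against Pre-miR negative control was -1.47 to -1.52 under the array scalings, the deposited log2 table and with flagged spots kept, and -0.77 with normexp background correction, which adds 50 to each intensity. Against siRNA negative control S100A9 ranged from -0.65 with normexp to -1.33 with quantile normalization, and it was -0.97, under 2-fold, when the percentile was taken over detected probes. S100A11 against siRNA negative control ranged from 0.82 to 1.30 over both probes and was under 2-fold when arrays were scaled on their medians (0.85 and 0.82). That same scaling took S100A2 to -1.02 and S100A4 to -1.05 for siGRB2 against siRNA negative control, both then past 2-fold. With a limit of 1.5-fold, 1 of the 10 member probes was called for Pre-miR-376c against Pre-miR negative control (S100P), where 11.3% of all probes were, and 5 for siGRB2 against siRNA negative control (S100A2, S100A4, S100A9 and both for S100A11), where 33.8% were. For siGRB2 against Pre-miR negative control 2 were called (S100A9 and S100P), where 8.59% of all probes were, and between the negative controls 4 (S100A2, S100A16 and both for S100A11), where 29.2% were.

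The proteins that S100 members bind were read from a list of 14 annexins and other partners, covered by 22 probes, all detected on all 4 arrays. Pre-miR-376c against Pre-miR negative control and siGRB2 against Pre-miR negative control each had 0 of the 22 probes 2-fold apart, beside 3.04% and 2.94% of all probes. AHNAK (A_23_P21363) lay just under the limit with siGRB2, at -0.999 from Pre-miR negative control and -0.94 from siRNA negative control. With siGRB2 its other probes were at 1.49 (A_23_P426636) and 5.43 (A_24_P943393). They were at 1.97 and 5.61 with Pre-miR negative control, and at 0.70 and 5.61 with siRNA negative control. For siGRB2 against siRNA negative control 2 of the 22 were 2-fold apart, near the 9.82% of all probes, MYH9 (A_24_P408424, 1.02) and PPP5C, a protein phosphatase (1.02), both higher, and against Pre-miR negative control they were 0.62 and 0.03. The second MYH9 probe (A_33_P3353692) was 0.69 and -0.41. Between the negative controls, AHNAK (A_23_P426636, -1.27) and this MYH9 probe (-1.10) were 2-fold apart, where 9.17% of all probes were. Other probes of both genes were not. With Pre-miR and siRNA negative control, AHNAK had log2 levels of 5.61 and 5.61 (A_24_P943393) and -1.45 and -1.50 (A_23_P21363). The MYH9 probe A_24_P408424 had 4.06 and 3.66. ANXA2, the partner of S100A10, was -0.09 with siGRB2 against Pre-miR negative control and -0.20 against siRNA negative control by one probe (A_23_P146644), and -0.95 and -0.38 by the other (A_32_P148345). ANXA1, the partner of S100A11, stayed within 0.22 over the 4 arrays.

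Receptors of secreted S100 proteins were covered by 12 probes for 9 genes, of which 10 probes were detected on all 4 arrays. Of these, 0 were 2-fold apart in any of the 6 pairs, where 2.9% to 9.82% of all probes were. With 10 probes, a count of 0 is near that share. AGER (A_23_P93360), the receptor for S100P and the calgranulins among others, was dim at -3.55 with Pre-miR negative control, -3.54 with Pre-miR-376c, -3.12 with siRNA negative control and -3.08 with siGRB2. The other AGER probe was not detected. TLR4 was detected by both of its probes and CD36 on no array.

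**Figure D4:**
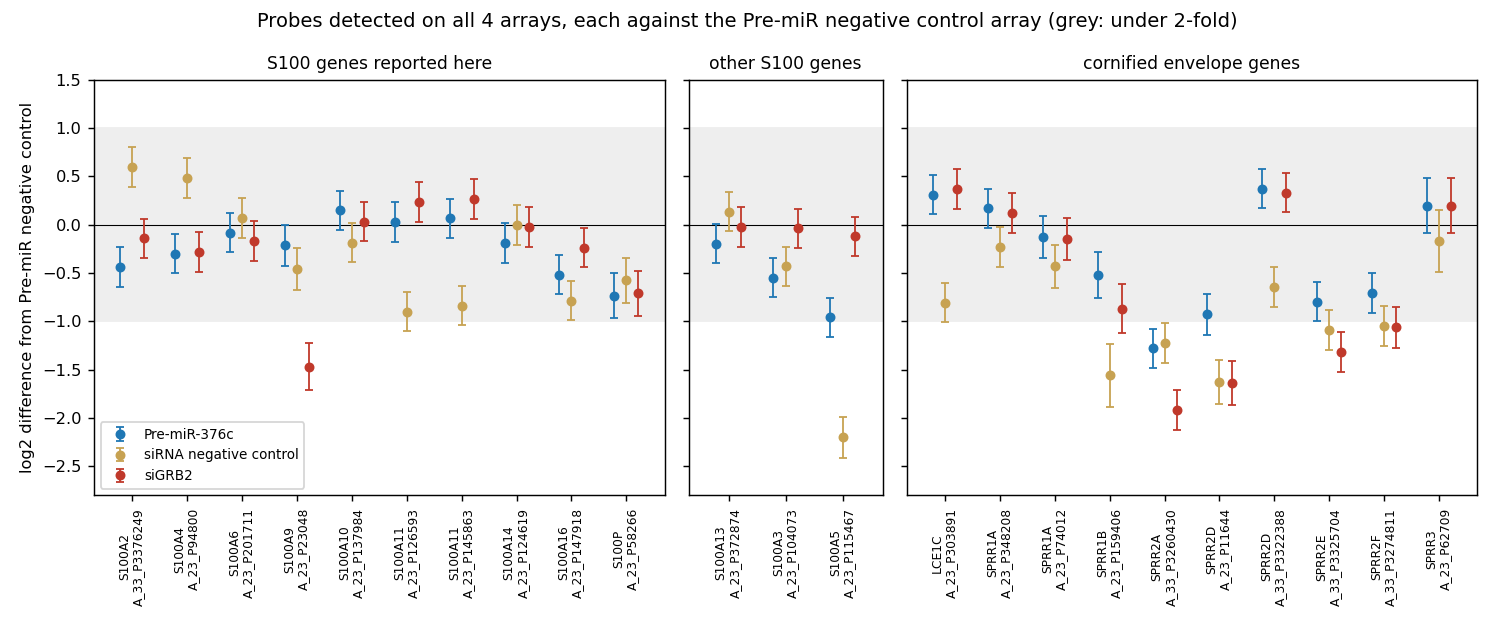
Log2 difference of each array from Pre-miR negative control (y axis) for probes detected on all 4 arrays, with the scanner error as a bar and the band under 2-fold in grey. Outside the band lie S100A9 with siGRB2 (-1.47) in the left panel, S100A5 with siRNA negative control (-2.20) in the middle one and, in the right one, SPRR1B with siRNA negative control (-1.56), SPRR2A with Pre-miR-376c (-1.28) and all SPRR2 probes but A_33_P3322388 with siRNA negative control and siGRB2.

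The cornified envelope genes share the chromosome 1 cluster with the S100 genes, and S100 proteins are themselves cross-linked into the envelope. Of 20 probes for 16 such genes, 10 were detected on all 4 arrays. Against Pre-miR negative control, 5 of 15 probes compared were at least 2-fold lower and 0 higher with siGRB2, beside 2.94% of all probes in either direction. With siRNA negative control 6 of 14 were lower and 1 (IVL) higher, beside 9.17%, and with Pre-miR-376c 1 of 13 was lower and 0 higher, beside 3.04%. The lower values were all in SPRR genes, and all but one (SPRR1B with siRNA negative control) in SPRR2 genes, whose near-identical sequences may share signal between probes. IVL (involucrin) was detected with siRNA negative control alone. LCE1C (A_23_P303891), a late envelope protein, gave 1.18 for siGRB2 against siRNA negative control and 0.37 against Pre-miR negative control, and for Pre-miR-376c against siRNA negative control it gave 1.12. The other LCE1C probe (A_33_P3356821) was detected on no array, so these values rest on 1 of the gene's probes.

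SPRR2A (A_33_P3260430), a small proline-rich envelope protein that also responds to injury in bile duct epithelium, had log2 levels of -1.78 with Pre-miR negative control, -3.06 with Pre-miR-376c, -3.01 with siRNA negative control and -3.70 with siGRB2. Of the 5 SPRR2 probes detected on all 4 arrays, 4 were highest with Pre-miR negative control, and the same 4 were lowest with siGRB2, as S100A9 was. For SPRR2D and SPRR2F the siGRB2 and siRNA negative control arrays differed by -0.01, and the other SPRR2D probe (A_33_P3322388) had another order, at -1.86, -1.49, -2.51 and -1.53. Against siRNA negative control, siGRB2 gave -0.69 in SPRR2A and -0.23 to -0.01 in SPRR2E, SPRR2F and SPRR2D (A_23_P11644), while S100A9 gave -1.01. The fused S100 genes of the cluster, such as FLG (filaggrin), which carry an S100 domain on a long repeat protein, were detected by 0 of their 11 probes on all 4 arrays and by 2 on some.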

How the data were processed

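Total RNA of 4 transfected HuCCT1 cultures was measured on 1 single-colour (Cy3) array each. The authors deposited the spot intensity values of Agilent Feature Extraction (10.7.3.1 per the file headers), which are background-subtracted and detrended but not normalized between arrays. A log2 table that the authors deposited beside them came from GeneSpring GX, where each array was shifted by its 75th percentile. Its column medians were -3.39, -3.44, -3.59 and -3.36 (Pre-miR negative control, Pre-miR-376c, siRNA negative control, siGRB2), and each column equalled the scanner values minus a constant within 0.01 for over 99% of probes, so its scale is log2, while the spots behind its percentile are not known here.

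From the processed intensities, log2 values were shifted to each array's 75th percentile over non-control spots, spots with an outlier flag (289 to 329 per array) were left out, and spots of a probe were averaged. A probe was detected when well above background on more than 0.5 of its spots. A comparison took probes with a value on both arrays and detected on at least 1, and an undetected side was set to the higher of its own signal and the lowest detected signal. Names came from accessions through a RefSeq table (GRCh38.p14), which matched 25422 of 34127 probes, and coordinates of the array's own build were not used. By rule, named genes were all members, GRB2, listed probes past 2-fold (at most 4 per list and comparison) and, for members ranging over 1 or more, the 3 named probes of nearest profile. Other genes named from the lists (S100A3, S100A13, ANXA1, ANXA2, AGER, TLR4, CD36, CEBPA, CEBPB, TP63, IVL, FLG and the cell markers) were chosen after their values were seen. The members and gene lists were chosen with earlier results of these data known.

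Alternatives were the array median, the percentile over detected probes, quantile normalization and normexp (offset 50, on spot and background medians, without the 7 siGRB2 spots whose background was over 10 times the array's median) in limma 3.58.1 (R 4.3.3), the deposited table, flagged spots kept, a 1.5-fold limit, other detection rules and other controls. The calling step (pandas 2.3.3 and numpy 2.4.6 in Python 3.11.15) was tested on simulated data with changes larger than 2-fold. That test checks the code and does not bear on the calls reported here. Planned protein comparisons were not run here.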

Additional observations from a re-analysis of the deposited data

How the results depend on the processing

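No paired analysis was possible because a single array stands for every condition, and for the same reason no replicate could be left out and slide or scan could not be set as a block. Of 40 member differences, 37 kept their direction with the percentile over detected probes, 36 with the array median, 36 with quantile normalization, 39 with the deposited table, 40 with normexp and 40 with flagged spots kept. Against siRNA negative control, 8 of the 10 differences of Pre-miR-376c kept their direction (S100A9 went from -0.21 to 0.25 and S100A16 from -0.52 to 0.27), and against the mean of both controls 19 of 20, with 13 of the 20 moved by more than the scanner error. The differences that turned were all under 2-fold. Scaling on the array median moved the median of all probes from 0.15 to -0.13 for siGRB2 against siRNA negative control and from -0.11 to 0.17 between the negative controls, and moved the members' medians to -0.36 and -0.052. With normexp the members' median between the negative controls was -0.11. The count of member probes 2-fold apart for Pre-miR-376c became 1 against siRNA negative control. With a 1.5-fold limit the counts were 1 for Pre-miR-376c, 5 and 2 for siGRB2 against siRNA and Pre-miR negative control, and 4 between the controls. With normexp the siGRB2 count against Pre-miR negative control became 0, and with quantile normalization that between the controls became 2. The causes were not tested. S100A9 and S100P lay near background, where intensities of 57.7 and 66.3 stood over a detection floor of 21.2 to 24.4, and S100A8 lay under it.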

Other observations

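Genes whose profile over the 4 arrays was nearest to that of a member were named by the largest gap between the centred log2 profiles, among 17429 named probes detected on all 4 arrays. For S100A9 the nearest was CALB2 (calretinin), with a largest gap of 0.24 and log2 levels of -4.20 with Pre-miR negative control, -4.59 with Pre-miR-376c, -4.87 with siRNA negative control and -6.11 with siGRB2. TMEM65 (0.25) and VSTM1 (0.25) followed, and 0 probes lay within 0.2. CALB2 with siGRB2 lay near the lowest detected level of that array, -6.43. The limit of 0.2 took no account of a probe's range or spot error, so counts for different members are not alike. Within it, 434 probes lay near S100A2, nearest GARRE1 (0.036), ERO1A (0.045) and PTGR3 (0.045). For S100A11, 563 and 623 probes lay within 0.2 of its 2 probes. NDUFB11 was among the nearest 3 for both, at 0.035 and 0.033, beside LINC01106 and MT1B for one and RARB and CST5 for the other. With 4 arrays a close profile is a description of these arrays only.

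Transcription factors known to act on S100 genes were covered by 14 probes for 11 genes, 12 of them detected on all 4 arrays. Pre-miR-376c and siGRB2, each against Pre-miR negative control, had 0 of 12 probes 2-fold apart, near the 3.04% and 2.94% of all probes in these pairs. Against siRNA negative control, siGRB2 had 3 of 12 past 2-fold, all higher, beside 9.82% of all probes in that pair: JUNB (1.49), CTNNB1 (A_33_P3421695, 1.33) and STAT3 (A_23_P100795, 1.13), beside 0.27, 0.71 and 0.76 against Pre-miR negative control. Between the negative controls JUNB was -1.23, and CTNNB1 (A_33_P3421695) was 1.05 with Pre-miR-376c against siRNA negative control. The second probes gave 0.30 in CTNNB1 and 0.71 in STAT3 against siRNA negative control. CEBPB, a factor known from the calgranulin genes, was highest with siRNA negative control (2.54) and at 1.66, 1.86 and 1.81 with Pre-miR negative control, Pre-miR-376c and siGRB2, and CEBPA and TP63 were detected on no array. COL1A1 was the only fibroblast marker detected, at -2.40, -3.41, -2.79 and -2.20, and APOA1 the only hepatocyte marker, by 1 of its 2 probes.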
